A study of Mus musculus with 16 samples.

Results

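Myostatin and activin signaling limits muscle mass, and 10 genes of it were followed in quadriceps muscle, chosen by symbol from the 41388 genes of the count table. They were the ligand genes *Mstn*, *Gdf11* and *Inhba*, the receptor genes *Acvr2a*, *Acvr2b* and *Acvr1b*, the genes *Fst*, *Fstl1* and *Fstl3* for follistatin and its relatives, and *Smad7*, which encodes an inhibitory SMAD. All 10 were found in the table, and all 10 had enough counts to be tested in every comparison. RNA sequencing had been performed on quadriceps of C57BL/6 mice in 4 groups of 4 libraries each: untreated wild type (WT), tamoxifen-treated wild type (WT + TAM), untreated *Mtm1* knockout (*Mtm1* KO) and tamoxifen-treated knockout (*Mtm1* KO + TAM). The labels give the knockout genotype as mtm1 -/-, and the study describes a constitutive deletion of exon 4 of *Mtm1*, the gene for the lipid phosphatase myotubularin that is lost in X-linked myotubular myopathy. Tamoxifen, a modulator of the estrogen receptor, was mixed into the chow at 40 mg/kg from day 21 of age, and the labels give day 36 as the age of all mice. The study describes the controls as littermates, and its supplement gives a slightly younger age for these samples. The comparisons ask how the loss of *Mtm1* and the treatment altered the muscle transcriptome.

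Myostatin and the closely related GDF11 are secreted as latent precursors, and activin A is a dimer of the *Inhba* product. These ligands bind the type II receptors ACVR2A and ACVR2B, which recruit and phosphorylate a type I receptor such as ALK4, the product of *Acvr1b*, and the type I receptor then phosphorylates SMAD2 and SMAD3. Follistatin (*Fst*) and FSTL3 bind myostatin and activins and keep them from their receptors, whereas SMAD7 competes for the type I receptor and is itself induced by the pathway. FSTL1 shares a follistatin domain with them and has been studied mainly as a secreted glycoprotein of connective tissue and muscle. In skeletal muscle, loss of myostatin or excess follistatin makes fibers larger, and myostatin is made by the muscle fibers themselves.

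The comparisons used 14 of the 16 libraries, without WT replicate 1 and *Mtm1* KO replicate 12. The study used the same set and gave no reason for leaving that pair out. Totals of the 14 ranged from 25702605 to 29847222 counts. Levels are given as CPM, counts scaled to library size, after TMM normalization, which adjusts each library by the bulk of its genes. *Mtm1* was at 13.6, 14.4 and 13.7 CPM in the WT replicates 2, 3 and 4 and at 2.49, 2.06 and 2.42 CPM in the *Mtm1* KO replicates 9, 10 and 11. In the library labelled WT replicate 1 it was at 3.82 CPM, which for this gene goes against that label. Other genes went both ways in that library. *Cdkn1a* was at 54.3 CPM, against 28.9 to 37.6 CPM in the other WT libraries and 297 to 584 CPM in *Mtm1* KO replicates 9, 10 and 11. *Acvr1b*, at 39.0 CPM, lay within the 31.7 to 47.6 CPM of the same *Mtm1* KO replicates. Whether the label is wrong was not tested. The mean correlation of this library with the other WT libraries was 0.94, against 0.958 to 0.962 for the others, so calls among the 10 genes and the listed pathway genes that involve WT or *Mtm1* KO are given with and without the pair left out where they change. Marker genes were tested in the 14 libraries only. A gene was called where the adjusted p of edgeR's quasi-likelihood test (Benjamini-Hochberg over all genes tested) was at most 0.01. The labels do not say whether libraries came from separate litters or batches, and the p-values measure the spread between these libraries.

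*Mstn* lies on chromosome 1 from 53061640 to 53068079 on the plus strand and *Gdf11* on chromosome 10 from 128882295 to 128891718 on the minus strand (GRCm38, annotation GENCODE vM21). The 2 genes encode close relatives, but no stretch of 50 bases of their exons was found in another gene (0% shared). RefSeq promoters were matched for 8 of the 10 genes (GRCm38.p6). The 250 bases before the transcription start of *Mstn* and of *Gdf11* are shown because this pair of related ligand genes lay on opposite sides of WT in *Mtm1* KO muscle. Capitals mark matches on either strand to the E-box CANNTG, which muscle regulatory factors bind, the SMAD box CAGAC, the TATA box TATAAA and the FoxO core TGTTTAC. They span chr1:53061390-53061639 (plus strand) and chr10:128891719-128891968 (minus strand).
Mstn: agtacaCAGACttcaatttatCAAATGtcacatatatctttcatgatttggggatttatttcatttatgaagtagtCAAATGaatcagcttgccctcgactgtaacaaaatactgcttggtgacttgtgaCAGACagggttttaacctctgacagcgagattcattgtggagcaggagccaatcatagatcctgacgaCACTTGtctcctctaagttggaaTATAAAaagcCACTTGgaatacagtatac
Gdf11: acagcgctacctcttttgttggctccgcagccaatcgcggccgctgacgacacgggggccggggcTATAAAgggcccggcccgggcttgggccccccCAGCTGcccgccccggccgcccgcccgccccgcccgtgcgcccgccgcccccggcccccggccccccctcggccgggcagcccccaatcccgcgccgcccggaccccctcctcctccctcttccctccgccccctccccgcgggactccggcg
The *Mstn* window held 4 E-boxes, beginning 229, 174, 52 and 19 bases before the start, 2 SMAD boxes at 244 and 120 bases and a TATA box at 29 bases. The *Gdf11* window held 1 E-box at 153 bases and a TATA box at 185 bases, and these letters of the SMAD box were not in it. Neither window held the FoxO core, and no marked motifs overlapped. Among 32851 promoter windows of this length, 66.2% held at least 1 E-box and 3.84% at least 4, 42.2% held at least 1 SMAD box and 11.7% at least 2, 12.4% held a TATA box and 3.17% the FoxO core. The G and C content was 38.4% for *Mstn* and 81.2% for *Gdf11*, against a median of 52.4%.

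Loss of *Mtm1* was accompanied by a 6.63-fold lower level of *Mstn* and a 2.85-fold higher level of *Fst*, the gene of its antagonist. These were the 2 of 10 genes called between *Mtm1* KO and WT, where 3.6% of 14740 genes were called, 1.91% higher and 1.69% lower. *Mstn* was at 29.45, 56.5 and 29.35 CPM in the WT replicates 2, 3 and 4 and at 7.50, 4.45 and 5.13 CPM in the *Mtm1* KO replicates 9, 10 and 11. The highest *Mtm1* KO library thus lay far below the lowest WT library of the 14. The log2 fold change was -2.73 with an SE of 0.30 and a 95% interval from -3.42 to -2.04 (adjusted p = 0.00131, edgeR). In muscle tissue, fewer fibers and less RNA per fiber cannot be told apart from such counts.

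The libraries left out of the 14 bear on this value. *Mstn* was at 11.1 CPM in the library labelled WT replicate 1, between the remaining WT and the *Mtm1* KO libraries, and at 5.55 CPM in *Mtm1* KO replicate 12, inside the *Mtm1* KO range. With both added, the log2 fold change was -2.45 (adjusted p = 0.00934, edgeR), and with WT replicate 1 alone it was -2.44 and was no longer called (adjusted p = 0.0282). The summed level of 12 muscle fiber markers was 173000 to 229000 CPM in WT and 103000 to 119000 CPM in *Mtm1* KO, with 246000 CPM in WT replicate 1 and 126000 CPM in *Mtm1* KO replicate 12. Most of the 12 were lower in *Mtm1* KO, and 1 (*Actn3*, a fast fiber actinin) was called. *Acta1*, *Ckm*, *Neb*, *Tnnt3*, *Pvalb* and *Casq1* had log2 fold changes from -0.66 to -0.98 without a call. All *Mtm1* KO libraries lay below WT in these genes. The rest went both ways, also without a call. The fast myosin gene *Myh4* had a log2 fold change of -1.30, the titin gene *Ttn* one of -0.24 with overlapping groups, and the myosin gene *Myh1* one of 0.97 with all *Mtm1* KO libraries above WT, while those of *Myh2* and of the myoglobin gene *Mb* were 1.21 and 0.62 with overlapping groups. All 12 were detected in each group. The part of these markers in the *Mstn* difference was not tested.

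*Gdf11*, the closest relative of *Mstn*, was on the other side of WT, although it did not pass the test. It was at 12.9, 25.02 and 8.20 CPM in the WT replicates 2, 3 and 4 and at 43.8, 28.9 and 52.6 CPM in the *Mtm1* KO replicates 9, 10 and 11. All 3 *Mtm1* KO libraries lay above all 3 WT libraries, and the replicates left out, at 11.9 CPM in WT replicate 1 and 36.8 CPM in *Mtm1* KO replicate 12, kept that order. Its log2 fold change was 1.46 (SE 0.37, 95% interval 0.63 to 2.30, adjusted p = 0.0339, edgeR). Without WT replicate 3 it was 2.0 and was called (adjusted p = 0.00774). Leaving out each library in turn gave log2 fold changes from 1.16 to 2.0 and adjusted p-values from 0.00774 to 0.0948 in edgeR. *Gdf11* was called in 5 of 20 alternative settings, and DESeq2 did not call it. *Inhba*, the activin subunit gene and in RPKM the least abundant of the 10, was at 1.33 to 1.69 CPM in WT and 0.82 to 2.59 CPM in *Mtm1* KO, and its interval for the log2 fold change ran from -0.93 to 1.07.

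**Figure D1:**
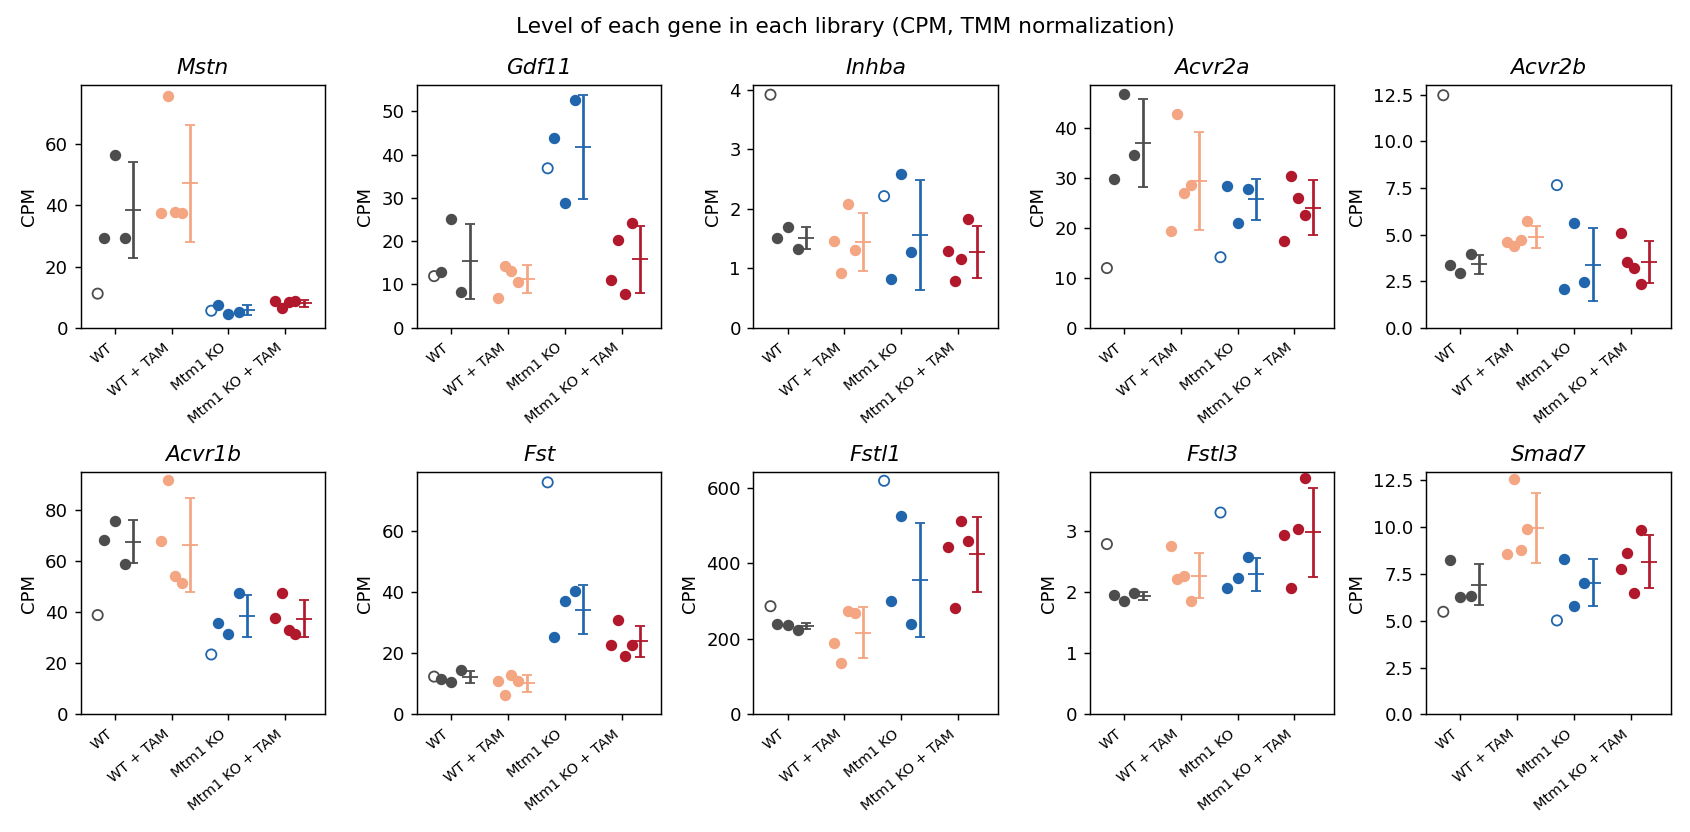
Level of each of the 10 genes in CPM (vertical axis, from 0, a scale of its own in each panel) by group. Filled points are the 14 libraries compared, open points the libraries labelled WT replicate 1 and *Mtm1* KO replicate 12, and the horizontal and vertical bars beside them the mean and SD of the filled points. *Mstn* sits at 4.45 to 8.76 CPM in the filled points of both *Mtm1* KO groups and at 29.35 CPM or above in both WT groups, and the group mean of *Gdf11* is highest in *Mtm1* KO.

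None of the 3 receptor genes was called between *Mtm1* KO and WT by edgeR's quasi-likelihood test. *Acvr1b*, which encodes the type I receptor ALK4, came closest, at 68.3, 75.9 and 59.0 CPM in the WT replicates 2, 3 and 4 against 36.0, 31.7 and 47.6 CPM in the *Mtm1* KO replicates 9, 10 and 11. The groups did not overlap, and the log2 fold change was -0.79 (SE 0.17, 95% interval -1.18 to -0.40, adjusted p = 0.0201, edgeR). *Acvr1b* was called lower by DESeq2 (adjusted p = 0.000477) and by edgeR's exact test (adjusted p = 0.00205), and the quasi-likelihood test called it with no filter on low counts (adjusted p = 0.00508). It was called in 4 of 20 alternative settings, with log2 fold changes from -0.978 to -0.455 among the 20. Leaving out single libraries gave no call (adjusted p from 0.0161 to 0.066, edgeR). WT replicate 1, at 39.0 CPM, fell among the *Mtm1* KO values. *Acvr2a*, a type II receptor gene, was at 29.8 to 47.0 CPM in WT and 21.1 to 28.4 CPM in *Mtm1* KO (log2 fold change -0.50, SE 0.19, adjusted p = 0.115, edgeR). WT replicate 1 and *Mtm1* KO replicate 12 had less of it than any of the 14 libraries, at 11.97 and 14.2 CPM. In *Acvr2a*, 6.98% of the 50-base exon stretches also lie in another gene, mainly *Orc4* on the opposite strand, and the counting of strands is not given in the sources used here. *Acvr2b*, the other type II receptor gene, was at 2.92 to 3.94 CPM in WT and 2.06 to 5.63 CPM in *Mtm1* KO, with an interval for the log2 fold change from -0.85 to 0.87.

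Among the follistatin genes, *Fst* was the one called. It was at 11.6, 10.5 and 14.4 CPM in the WT replicates 2, 3 and 4 and at 25.2, 37.0 and 40.4 CPM in the *Mtm1* KO replicates 9, 10 and 11. Every *Mtm1* KO library was above every WT library, *Mtm1* KO replicate 12 being the highest of all at 75.9 CPM and WT replicate 1 lying in the WT range at 12.4 CPM. The log2 fold change of *Fst* was 1.51 (SE 0.20, 95% interval 1.06 to 1.96, adjusted p = 0.00268, edgeR). It was called with all 16 libraries (1.89, adjusted p = 0.00843), but the adjusted p passed 0.01 when 1 library was left out (0.0113 without WT replicate 2, 0.0114 without WT replicate 3, 0.0122 without *Mtm1* KO replicate 10 and 0.0112 without *Mtm1* KO replicate 11) and when *Mtm1* KO replicate 12 was added alone (0.0127).

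*Fstl1*, in RPKM the most abundant of the 10 genes, was at 238.9, 237.2 and 224.4 CPM in the WT replicates 2, 3 and 4 and at 299.9, 525.5 and 239.7 CPM in the *Mtm1* KO replicates 9, 10 and 11. The lowest *Mtm1* KO library and the highest WT library were almost level, and *Mtm1* KO replicate 12 and WT replicate 1 were at 618 and 286 CPM. The log2 fold change was 0.63 (SE 0.26, adjusted p = 0.138, edgeR). Summed levels of 12 fibroblast markers were 7440 to 8590 CPM in WT and 6800 to 9710 CPM in *Mtm1* KO. Of these, *Mfap5*, a microfibril protein gene, was called higher. Without a call, *Pdgfra*, *Ly6a*, *Lum* and *Gsn* lay above WT, *Dpp4* and *Col3a1* lay below it, and the rest overlapped. Summed levels of 6 tendon markers were 420 to 628 CPM in WT and 613 to 1080 CPM in *Mtm1* KO. Of these, *Thbs4*, a matrix protein gene, was called higher. *Scx* lay above WT without a call, and *Tnmd*, *Mkx*, *Comp* and *Fmod* overlapped. The tendon marker sum was 1290 CPM in WT replicate 1, above every *Mtm1* KO library, and 917 CPM in *Mtm1* KO replicate 12. The part of connective tissue cells in the follistatin genes' levels was not tested. Of 6 satellite cell markers 1 (*Calcr*) was called lower, at summed levels of 34.9 to 44.1 CPM in WT and 30.6 to 37.2 CPM in *Mtm1* KO. *Calcr* had too few counts to be tested between the 2 knockout groups, so here it was tested only through the WT libraries. *Pax7*, *Vcam1* and *Chrdl2* lay below WT without a call, and *Myf5* and *Cdh15* overlapped. None of the endothelial, smooth muscle, fat cell and red blood cell markers was called. *Fstl3*, at 1.86 to 1.99 CPM in WT and 2.06 to 2.58 CPM in *Mtm1* KO, also did not overlap, yet its log2 fold change of 0.26 had an interval from -0.34 to 0.87, and WT replicate 1 had 2.79 CPM of it. Of its 50-base exon stretches, 46.2% lie in another gene, mainly the antisense *Prss57*, which had 0 to 7 counts in a library.

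*Smad7*, the inhibitory SMAD, was at 6.27 to 8.20 CPM in WT and 5.80 to 8.28 CPM in *Mtm1* KO, and its log2 fold change of 0.04 had an interval from -0.42 to 0.51. In the 14 libraries, 7 of the 10 genes did not overlap between *Mtm1* KO and WT, against 36.4% of all genes tested, and 6 of 10 had an unadjusted p under 0.05, against 30.1%. With WT replicate 1 set beside them, *Acvr1b*, *Acvr2a*, *Fstl1* and *Fstl3* overlapped too, and the share over all genes was not taken anew. The median log2 fold change of the 10 genes was 0.06, beside 0.02 over all genes. Scaling by library size alone moved the median of all genes to 0.33, so levels are relative to the bulk of the transcriptome.

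**Figure D2:**
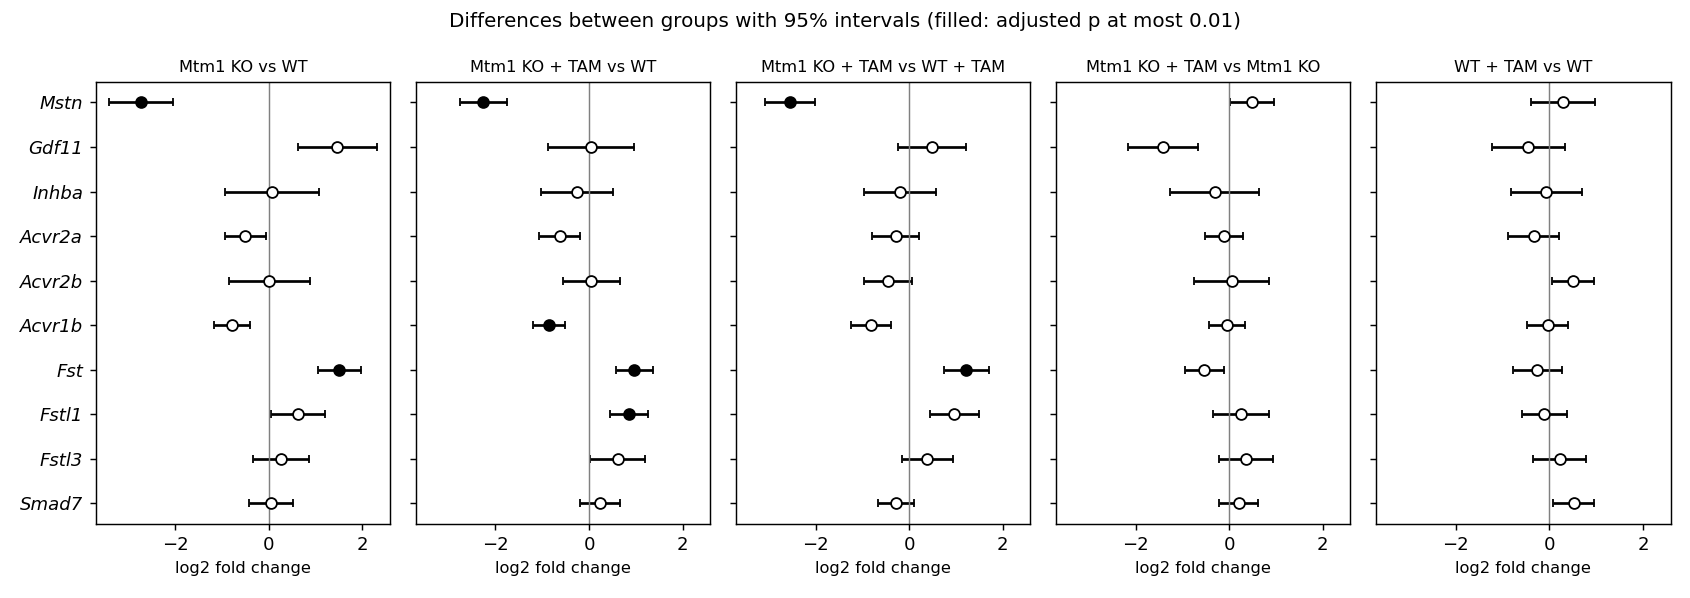
Log2 fold change of each gene (horizontal axis) in the 5 comparisons of groups, with bars for the 95% interval and filled points for an adjusted p of at most 0.01 in edgeR. *Mstn* is filled and near -2.5 in the 3 panels that set a *Mtm1* KO group against a WT group, *Fst* is filled on the other side of 0 in the same panels, and no point is filled in the 2 panels of tamoxifen treatment within a genotype.

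In treated knockout muscle *Mstn* was still below and *Fst* above WT, and the largest difference with treatment among the 10 genes, that of *Gdf11*, did not pass the test. None of the 10 genes was called between *Mtm1* KO + TAM and *Mtm1* KO, where edgeR called 0 of 15062 genes (0%), while 1137 genes (7.55%) had an unadjusted p under 0.05. In this comparison 3 of the 10 genes had such a p. *Gdf11* was at 10.96, 20.2, 7.86 and 24.2 CPM in the *Mtm1* KO + TAM replicates 13 to 16, all below the lowest *Mtm1* KO library (28.9 CPM) and spread over the same range as the WT libraries. The log2 fold change was -1.41 (SE 0.34, 95% interval -2.16 to -0.67), a 2.66-fold lower level, with an unadjusted p of 0.00153 and an adjusted p of 0.225 in edgeR. DESeq2, which called 72 genes here, called *Gdf11* (adjusted p = 0.00666), and edgeR's exact test, which also called 72 genes, called 0 of the 10. Of all genes tested, 7.69% did not overlap between these groups.

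*Mstn* was at 8.76, 6.34, 8.39 and 8.62 CPM in the *Mtm1* KO + TAM replicates 13 to 16. These values overlapped those of *Mtm1* KO, and the log2 fold change was 0.48 (95% interval 0.01 to 0.95, unadjusted p = 0.0452, adjusted p = 0.644, edgeR). *Fst* was at 22.7, 30.8, 19.2 and 22.8 CPM, again overlapping *Mtm1* KO, with a log2 fold change of -0.53 (95% interval -0.95 to -0.11, unadjusted p = 0.0179, adjusted p = 0.504, edgeR). With *Mtm1* KO replicate 12, it was -0.91 (adjusted p = 0.406). For the other 7 genes, adjusted p-values ran from 0.837 to 0.993, and the log2 fold changes from -0.31 for *Inhba* to 0.37 for *Fstl3*.

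For the receptor genes the data bound the difference with treatment. *Acvr1b* was at 31.7 to 47.5 CPM in *Mtm1* KO + TAM, with an interval for the log2 fold change against *Mtm1* KO from -0.43 to 0.34. The interval of *Acvr2a* ran from -0.52 to 0.30 and that of *Acvr2b* from -0.76 to 0.86. The widest of these intervals was thus that of *Acvr2b*, which had the lowest counts of the 3.

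In WT muscle, tamoxifen moved none of the 10 genes past the threshold either, where 0.131% of 14544 genes were called. *Acvr2b* and *Smad7* had unadjusted p-values under 0.05, as did 10.7% of all genes, and did not overlap between WT + TAM and WT, as did 11.5%. *Acvr2b* was at 4.61, 4.38, 4.69 and 5.73 CPM in the WT + TAM replicates 5 to 8, above the 2.92 to 3.94 CPM of WT (log2 fold change 0.50, SE 0.20, unadjusted p = 0.0343, adjusted p = 0.425, edgeR). The library labelled WT replicate 1 had 12.5 CPM of it, and with that library the log2 fold change turned to -0.215 (adjusted p = 0.895). *Smad7* was at 8.53, 12.6, 8.78 and 9.85 CPM in WT + TAM, above the 6.27 to 8.20 CPM of WT (log2 fold change 0.52, SE 0.19, unadjusted p = 0.0231, adjusted p = 0.371, edgeR). *Mstn* was at 37.6, 75.8, 37.7 and 37.5 CPM in WT + TAM, overlapping WT, with an interval for the log2 fold change from -0.39 to 0.98.

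Whether tamoxifen acted differently in the 2 genotypes was tested as an interaction in 1 fit of all 4 groups. It was called for 0 of the 10 genes and for 0 of 15556 genes (0%) in edgeR, with 664 genes (4.27%) at an unadjusted p under 0.05 and 0 of the 10 among them. DESeq2 also called 0 of the 10. *Gdf11* had the largest difference, at -0.95 on the log2 scale (SE 0.56, 95% interval -2.14 to 0.24, unadjusted p = 0.109, adjusted p = 1). For *Mstn* it was 0.20 (95% interval -0.66 to 1.07) and for *Fst* -0.26 (95% interval -0.95 to 0.42).

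Treated knockout muscle was then set against each WT group. These comparisons share libraries with those above, so their values are given side by side and not as repeats. Against WT, 4 of the 10 genes were called, where 7.7% of 14942 genes were called, 3.56% higher and 4.14% lower. *Mstn* was lower (log2 fold change -2.26, SE 0.23, adjusted p = 0.000306) and *Acvr1b* lower (-0.85, SE 0.15, adjusted p = 0.00422), whereas *Fst* was higher (0.97, SE 0.18, adjusted p = 0.00479) and *Fstl1* higher (0.86, SE 0.19, adjusted p = 0.00998), all in edgeR. *Fstl1* was at 442, 281, 511 and 460 CPM in the *Mtm1* KO + TAM replicates 13 to 16, all above the 239 CPM of the highest of the 3 WT libraries. *Gdf11* differed by 0.04 on the log2 scale, with an interval from -0.87 to 0.95.

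None of these 4 calls was kept when the library labelled WT replicate 1 was added. The log2 fold change of *Mstn* was then -1.98 (adjusted p = 0.0139) and that of *Fst* 0.96 (adjusted p = 0.0113), that of *Acvr1b* -0.69 (adjusted p = 0.0785) and that of *Fstl1* 0.78 (adjusted p = 0.0386), in edgeR. Directions stayed. In the 14 libraries, *Fstl3*, at 2.07 to 3.87 CPM in *Mtm1* KO + TAM, did not overlap WT but was not called (0.62, adjusted p = 0.131, edgeR). There, 5 of the 10 genes did not overlap, against 31.3% of all genes. An unadjusted p under 0.05 was seen for 6 of the 10, against 34% of all genes. With WT replicate 1 set beside them, *Acvr1b*, *Fstl1* and *Fstl3* overlapped too.

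Against WT + TAM, *Mstn* and *Fst* were called, 2 of 10 genes, where 6.72% of 14563 genes were called, 3.42% higher and 3.3% lower. The log2 fold change of *Mstn* was -2.55 (SE 0.24, 95% interval -3.08 to -2.02, adjusted p = 0.000151), and this was the one comparison of genotypes that involved neither untreated group. *Fst* was at 11.02, 6.24, 12.9 and 10.8 CPM in WT + TAM and 2.34-fold higher in *Mtm1* KO + TAM (log2 fold change 1.22, SE 0.22, adjusted p = 0.00369, edgeR). *Acvr1b* (-0.82, adjusted p = 0.0152) and *Fstl1* (0.97, adjusted p = 0.0181) did not overlap between the groups but missed the threshold in edgeR. In all, 4 of the 10 genes did not overlap, against 22.5% of all genes, and 4 of 10 had an unadjusted p under 0.05, against 32.3%. Fiber marker sums were 182000 to 193000 CPM in WT + TAM and 90400 to 135000 CPM in *Mtm1* KO + TAM, with 4 of the 12 called lower. Without a call, *Acta1*, *Ttn*, *Neb*, *Tnnt3* and *Casq1* also lay below WT + TAM. *Myh1* (log2 fold change 0.78) and *Myh2* (1.51) lay above it without a call, and *Mb* overlapped. The part of the fiber markers was not tested.

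The order of the genes by level per length, in the deposited RPKM values, moved with genotype. In WT, *Fstl1* was highest at 43.4 ± 2.68 RPKM (SD, n = 3), followed by *Acvr1b* at 13.98 ± 1.34 and *Mstn* at 12.8 ± 4.42, whose ranges overlapped. *Acvr2a* (5.91 RPKM), *Fst* (4.79 RPKM), *Gdf11* (3.40 RPKM), *Acvr2b* (1.78 RPKM) and *Smad7* (1.40 RPKM) followed, each overlapping the next. *Fstl3* (0.725 RPKM) and *Inhba* (0.696 RPKM), which overlapped each other, were lowest. In *Mtm1* KO, *Fstl1* was again first at 83.8 ± 37.2 RPKM (SD, n = 3), *Fst* was next at 16.8 ± 3.68 and then *Gdf11* at 11.8 ± 3.13, while *Mstn* came after *Acvr2a* at 2.43 ± 0.71. *Fst* and *Gdf11* overlapped there, as did *Gdf11* and *Acvr1b* (9.998 RPKM), while *Acvr2a* (5.22 RPKM) stood apart from its neighbours.

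**Figure D3:**
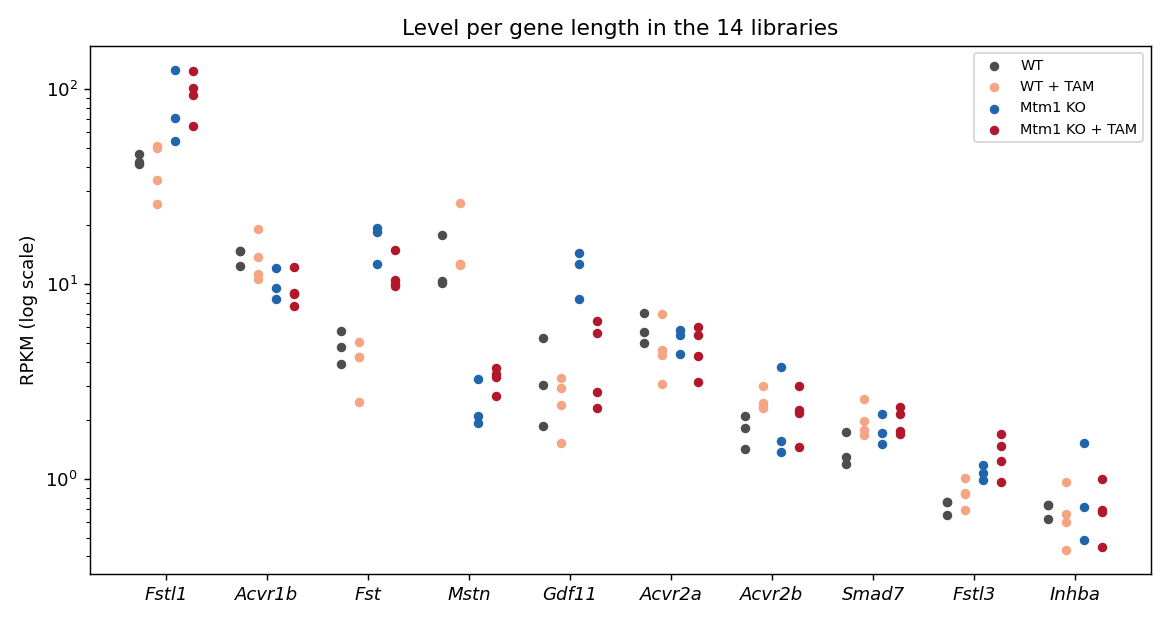
Level per gene length in RPKM (vertical axis, log scale) of the 10 genes in each of the 14 libraries, with 1 column of points for each group. *Fstl1* is highest in every group, *Mstn* falls from 10.1 to 17.9 RPKM in WT to 1.93 to 3.24 RPKM in *Mtm1* KO, and *Fst* and *Gdf11* lie highest in *Mtm1* KO.

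In *Mtm1* KO + TAM the order was *Fstl1* (95.7 RPKM), *Fst* (11.3 RPKM), *Acvr1b* (9.45 RPKM), *Acvr2a* (4.73 RPKM), *Gdf11* (4.29 RPKM) and *Mstn* (3.29 RPKM). *Acvr2a* overlapped *Gdf11* and *Gdf11* overlapped *Mstn*, while *Acvr1b* and *Acvr2a* did not overlap. In WT + TAM, *Mstn* stood second at 15.9 ± 6.67 RPKM (SD, n = 4), overlapping both *Fstl1* (40.2 RPKM) and *Acvr1b* (13.7 RPKM). The 4 genes of lowest level kept their order in all 4 groups.

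Read as a ratio within a library, *Fst* RPKM per *Mstn* RPKM was 0.457, 0.216 and 0.57 in the WT replicates 2, 3 and 4 and 0.0953 to 0.395 in WT + TAM. It was 3.89, 9.62 and 9.13 in the *Mtm1* KO replicates 9, 10 and 11 and 3, 5.62, 2.64 and 3.05 in the *Mtm1* KO + TAM replicates 13 to 16. Every WT or WT + TAM library of the 14 thus had more *Mstn* than *Fst* transcript per length, and every knockout library had more *Fst*. WT replicate 1 had a ratio of 1.29 and *Mtm1* KO replicate 12 one of 15.8. *Gdf11* RPKM per *Mstn* RPKM was 0.186 to 0.295 in WT, 3.89 to 6.83 in *Mtm1* KO and 0.624 to 2.12 in *Mtm1* KO + TAM, with no overlap between these groups. It was 0.712 in WT replicate 1, inside the range of *Mtm1* KO + TAM.

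Over the 14 libraries, log2 CPM of *Mstn* and *Fst* had a Pearson's r of -0.967, and r was -0.851 after the group means were taken out. *Acvr1b* and *Fstl1* had an r of -0.917, and -0.884 within groups. *Mstn* and *Acvr1b* had an r of 0.861, which was 0.427 within groups. These are descriptions, since the libraries share depth, muscle composition and group differences.

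**Figure D4:**
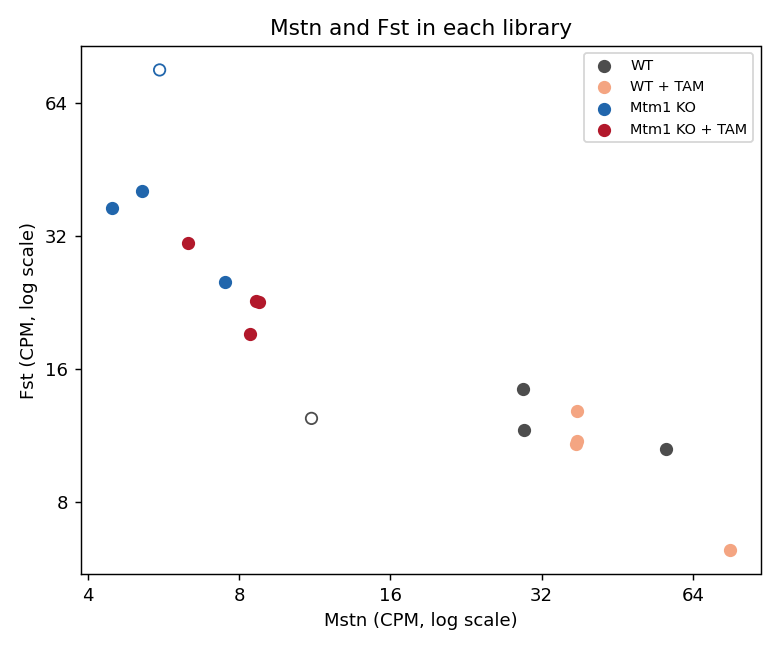
*Fst* (vertical axis) against *Mstn* (horizontal axis) in CPM, both on log scales, 1 point per library and colors for groups. Open points are the libraries labelled WT replicate 1 (gray) and *Mtm1* KO replicate 12 (blue), and knockout libraries form the upper left, with *Mstn* at 8.76 CPM or less and *Fst* at 19.2 CPM or more.

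Among 11862 genes with a mean of at least 50 counts, those most like *Mstn* over the 14 libraries were *Kif1c*, a kinesin motor gene (r = 0.983), *Scn4a*, the sodium channel of skeletal muscle (0.979), the phosphatase gene *Mtmr3*, a relative of *Mtm1* (0.979), *Hdlbp*, which encodes vigilin (0.979), and *Eif4g1*, a translation initiation factor (0.977). Within groups these values were 0.764 to 0.881. *Kif1c* was at 832 ± 64.1 CPM in WT and 442 ± 39.7 CPM in *Mtm1* KO (SD, n = 3), and *Scn4a* at 347 ± 49.6 and 182 ± 19.8 CPM. Those most like *Fst* were the receptor tyrosine kinase gene *Erbb2* (r = 0.976), *Sh2d4a* (0.963), *Lrrn2* (0.95), the palmitoyltransferase gene *Zdhhc18* (0.95) and *Uchl1*, a ubiquitin hydrolase best known from neurons (0.948). *Uchl1* was at 3.72 ± 2.56 CPM in WT and 53.7 ± 17.5 CPM in *Mtm1* KO, and *Erbb2* at 6.47 ± 1.40 and 13.2 ± 1.87 CPM (SD, n = 3).

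A list of 76 other genes of TGF-β, activin and BMP signaling, grouped by role, was read beside the 10. Of these, 69 could be tested between *Mtm1* KO and WT, and 7 were called higher and 0 lower, where 1.91% of all genes were called higher and 1.69% lower. With all 16 libraries, or with WT replicate 1 added alone, 3 were called (*Igsf1*, *Ctgf* and *Cdkn1a*), and with *Mtm1* KO replicate 12 added alone 5 were. In the 14 libraries the SMAD-responsive genes held most of the calls, with 4 of 8 called higher and a median log2 fold change of 0.95, against 0.02 over all genes. Of the ligands 1 of 15 was called, of processing, binding and antagonist genes 2 of 16, of receptors 0 of 11 and of SMADs and their cofactors 0 of 19. *Foxh1*, *Fstl4*, *Fstl5*, *Gdf3*, *Inhbe*, *Tdgf1* and *Tll2* had too few counts in every comparison.

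*Cdkn1a*, the cell cycle inhibitor p21, had the largest log2 fold change of the 8 SMAD-responsive genes and rose from 29.7, 28.9 and 37.6 CPM in the WT replicates 2, 3 and 4 to 313, 297 and 584 CPM in the *Mtm1* KO replicates 9, 10 and 11 (log2 fold change 3.65, SE 0.28, adjusted p = 0.000274, edgeR). *Ctgf*, a matricellular factor, rose by 2.20 on the log2 scale (adjusted p = 0.000165, edgeR). *Ctgf* was at 45.4 to 52.0 CPM in WT and 197 to 239 CPM in *Mtm1* KO. The inhibitors of DNA binding *Id2* (1.71, adjusted p = 0.00725) and *Id3* (1.11, adjusted p = 0.00739), better known as BMP targets, rose too. The call of neither held with WT replicate 1 added alone, where *Id2* had an adjusted p of 0.0437 and *Id3* one of 0.468 in edgeR. That library had 59.9 CPM of *Id3*, above the 45.1 to 49.5 CPM of the 3 *Mtm1* KO libraries compared. With *Mtm1* KO replicate 12 added alone, *Id3* was not called (adjusted p = 0.0118). These genes also answer to other signals, such as p53 for *Cdkn1a*, and are named here as the list has them.

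The called ligand was *Tgfb1*, the TGF-β1 gene, at 8.98 to 14.4 CPM in WT and 25.3 to 28.6 CPM in *Mtm1* KO (log2 fold change 1.22, SE 0.18, adjusted p = 0.00399, edgeR). *Ltbp1*, whose product holds latent TGF-β in the matrix, rose by 0.87 on the log2 scale (adjusted p = 0.0094), and *Igsf1*, a membrane glycoprotein gene, by 2.17 (adjusted p = 0.00203). WT replicate 1 had 20.8 CPM of *Tgfb1*, above the other WT libraries, and with it added alone neither *Tgfb1* (0.96, adjusted p = 0.0949, edgeR) nor *Ltbp1* (0.95, adjusted p = 0.0266) was called. *Ltbp1* was also not called with *Mtm1* KO replicate 12 added alone (adjusted p = 0.0137). Macrophages are one source of TGF-β1, and the summed level of 7 macrophage and leukocyte markers found in the table was 151 to 174 CPM in WT and 204 to 293 CPM in *Mtm1* KO, with 0 of 7 called. All 7 had log2 fold changes above 0, from 0.48 for *Csf1r* to 1.39 for *Cd68*. *Csf1r* overlapped WT, and the rest lay above it. The part of these markers in the *Tgfb1* difference was not tested.

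**Figure D5:**
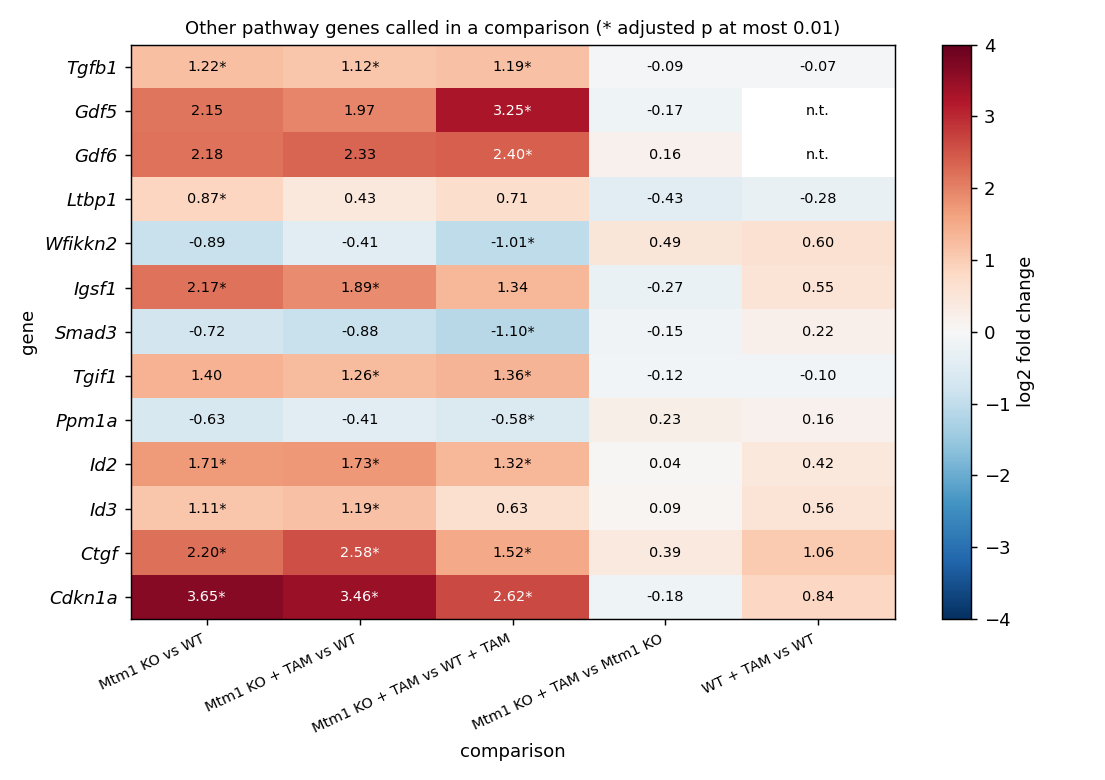
Log2 fold change (color and printed value) of the 13 listed pathway genes called in at least 1 of 5 comparisons of the 14 libraries, with an asterisk for an adjusted p of at most 0.01 in edgeR and n.t. where a gene was not tested. *Ctgf*, *Cdkn1a*, *Id2* and *Tgfb1* carry an asterisk in the 3 columns that set a *Mtm1* KO group against a WT group, and no gene carries one in the 2 columns of tamoxifen treatment.

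Under tamoxifen, 0 of 67 listed genes were called between *Mtm1* KO + TAM and *Mtm1* KO, with 5 at an unadjusted p under 0.05 beside 7.55% of all genes, and 0 of 63 between WT + TAM and WT, with 15 beside 10.7%. Of the 8 SMAD-responsive genes, 5 were among those 15. *Ctgf* was at 143, 88.7, 85.1 and 82.5 CPM in WT + TAM, above all 3 WT libraries (log2 fold change 1.06, adjusted p = 0.0561, edgeR), and *Cdkn1a* at 42.0 to 65.9 CPM (0.84, adjusted p = 0.0744). The interaction was called for 0 of 69 listed genes, with 6 at an unadjusted p under 0.05 beside 4.27% of all genes, among them *Ctgf* (-0.66) and *Cdkn1a* (-1.01).

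Between *Mtm1* KO + TAM and WT, 7 of 67 listed genes were called higher and 0 lower, beside 3.56% and 4.14% of all genes. With WT replicate 1 added, 3 of these genes were called (*Tgif1*, *Ctgf* and *Cdkn1a*). Between *Mtm1* KO + TAM and WT + TAM, 7 of 64 were called higher and 3 lower, beside 3.42% and 3.3% of all genes. The 3 lower ones were *Wfikkn2* (-1.01, adjusted p = 0.00838), whose product binds myostatin and GDF11, *Smad3* (-1.10, adjusted p = 0.00384), the SMAD that the receptors phosphorylate, and *Ppm1a* (-0.58, adjusted p = 0.00504), a phosphatase. *Wfikkn2* was at 12.2, 13.4, 14.1 and 12.1 CPM in the WT + TAM replicates 5 to 8 and at 7.36, 8.80, 4.18 and 5.41 CPM in the *Mtm1* KO + TAM replicates 13 to 16, with no overlap. The untreated WT replicates 2, 3 and 4 had 9.31, 8.64 and 7.69 CPM, below all WT + TAM libraries and overlapping *Mtm1* KO + TAM. Against WT, *Wfikkn2* was not called. *Tgif1*, a transcriptional repressor that binds SMADs, was higher in *Mtm1* KO + TAM than in WT (log2 fold change 1.26, adjusted p = 0.00417) and than in WT + TAM (1.36, adjusted p = 0.00598). The growth factor genes *Gdf5* and *Gdf6* were called higher against WT + TAM, at 1.24 to 2.25 CPM and 0.77 to 2.07 CPM in *Mtm1* KO + TAM. In WT + TAM they had only 1 to 7 and 3 to 10 counts in a library. Both could thus be tested only through the group where they were higher, and both are among the 7 genes counted above.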

How the data were processed

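Deposited tables of 41388 genes, covering quadriceps RNA of 16 mice, were used. Per the authors, TruSeq libraries (1 µg of RNA each) were sequenced, reads aligned to GRCm38 by STAR and assigned to genes by HTSeq. The submitters' processing notes name STAR 2.5.0c, bcl2fastq 2.17 and Cufflinks 2.2.1. The deposited counts are whole numbers without scaling. The deposited RPKM values were derived by the authors from these counts, per library size and gene length (2066 genes were checked, largest relative deviation 9.42e-05). Annotation, counting mode, strand setting and gene lengths: not given in the sources used here. Every value column was used, and 0 of 120 library pairs held identical counts.

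Groups came from the labels. Each pair of groups was fitted in edgeR 4.0.16 (R 4.3.3): TMM factors, filterByExpr (count 10, total 15), quasi-likelihood test, Benjamini-Hochberg over the genes tested, calls at 0.01. The interaction came from a fit of all 4 groups. SE is the absolute log2 fold change over the square root of F. Alternatives covered the test (DESeq2 1.42.0, the exact test of edgeR, or both, and limma 3.58.1 on log2 RPKM with 0.1 or 1 added), the scaling (RLE, upper quartile, library size), the filter (none, or 10 counts in each library), the threshold (0.05), the samples (all 16 libraries, leaving out single libraries) and a joint fit. Adding WT replicate 1 or KO replicate 12 alone, and refitting the pathway list with these libraries, was chosen after seeing the data. Scripts were tested on simulated data.

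The 10 genes, pathway list, marker lists and tests were chosen with earlier results of these data known. Named are the 10 genes, each listed pathway gene called in at least 1 comparison, and the 5 genes with the highest correlation to *Mstn* and to *Fst* on log2 CPM (prior count 2). Of the pathway list, 2 genes are not reported here and enter none of its counts. *Actn3*, *Mfap5*, *Thbs4* and *Calcr*, the called markers, were named after their values were seen. So were the other fiber, fibroblast, tendon, satellite cell and macrophage markers given by name.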

Additional observations from a re-analysis of the deposited data

Results flagged for a closer look

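In groups of 4 libraries, 5 of 40 group and gene pairs among the 10 genes held a library set apart by Dixon's ratio, the gap to the nearest library over the range. Chance gives about 1 in 20. The library labelled WT replicate 1 was the highest WT library in 3 of them. It had 12.5 CPM of *Acvr2b* against 2.92 to 3.94 CPM in the others (ratio 0.893), 2.79 CPM of *Fstl3* against 1.86 to 1.99 CPM (ratio 0.862) and 3.92 CPM of *Inhba* against 1.33 to 1.69 CPM (ratio 0.858). The remaining 2 were of *Mstn*. WT + TAM replicate 6 had 75.8 CPM against 37.5 to 37.7 CPM in the others (ratio 0.996), and *Mtm1* KO + TAM replicate 14 had 6.34 CPM against 8.39 to 8.76 CPM (ratio 0.849).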

How the results depend on the processing

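No paired analysis was possible because the labels number the libraries 1 to 16 without a number shared between groups. Of 10 genes, edgeR called 2 between *Mtm1* KO and WT, 3 with DESeq2, with DESeq2 and the exact test together or with library size scaling, 4 with edgeR's exact test, with a threshold of 0.05 or with no filter, 1 with WT replicate 1 added alone (*Fst*), 1 with KO replicate 12 added alone (*Mstn*), and 1 to 2 with a library left out. Between *Mtm1* KO + TAM and *Mtm1* KO, 0 were called and 1 with DESeq2 (*Gdf11*). Between *Mtm1* KO + TAM and WT, 4 were called, 0 with all 16 libraries or WT replicate 1 added alone, and 1 to 4 with a library left out. Between *Mtm1* KO + TAM and WT + TAM, 2 were called, 4 with DESeq2, the exact test, both, a threshold of 0.05 or no filter, and 1 to 2 with a library left out. Of the listed pathway genes, 7 were called between *Mtm1* KO and WT and 7 between *Mtm1* KO + TAM and WT, and 3 in each with all 16 libraries or WT replicate 1 added alone. For the 10 genes, WT + TAM against WT and the interaction stayed at 0 calls under every alternative. *Mstn* kept its call against WT + TAM under all alternatives run there. *Acvr2b* in WT + TAM against WT reversed to -0.215 with all 16 libraries or WT replicate 1 alone (adjusted p = 0.895). Against WT, some calls in *Mtm1* KO + TAM were lost, with an adjusted p above 0.01 in edgeR. Without WT replicate 2, *Acvr1b* (0.0134), *Fst* (0.0189) and *Fstl1* (0.0306) lost the call. The same genes lost it without WT replicate 3 (0.0161, 0.0196 and 0.0271) and without *Mtm1* KO + TAM replicate 13 (0.0136, 0.0109 and 0.0243). Without *Mtm1* KO + TAM replicate 15, *Acvr1b* (0.0155) and *Fstl1* (0.0279) lost the call. So did *Fstl1* without WT replicate 4 (0.0425) or *Mtm1* KO + TAM replicate 16 (0.0196). *Acvr1b* was also not called with limma or library size scaling, and *Fstl1* was not called with upper quartile scaling or 1 fit of all groups. *Fst* against WT + TAM lost its call without WT + TAM replicate 8 (0.0105) or *Mtm1* KO + TAM replicate 14 (0.0116). For the causes, none was tested. For the 21 pairs of a gene and a comparison with an unadjusted p under 0.05 or a call under some setting, of 416 values under alternatives, 357 kept direction and side of the threshold, 34 lost and 23 gained the call, and 2 reversed. The other 39 pairs gave 814 values, 77 of them with the other sign. At about 2 CPM, *Inhba* and *Fstl3* had intervals too wide to show small differences.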
